A study of Mus musculus with 36 samples.

Results

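The catenins are a small set of genes with beta-catenin at the centre, and 7 of them were followed here across every library of the series: Ctnnb1 (beta-catenin), Jup (plakoglobin, also called gamma-catenin), Ctnna1 and Ctnna2 (alpha-catenins), Ctnnd1 (p120-catenin), Ctnnd2 (delta-catenin) and Ctnnbip1 (a small inhibitor of beta-catenin). They were chosen by gene symbol, not by a measured value, but with earlier results of these data known. Each was found by its Ensembl identifier among the 30125 genes of the 3 tables. The libraries are bulk RNA-seq of primary mouse nephron progenitor cells (NPCs), the stem-like cells that give rise to the nephron, isolated from embryonic kidneys (E16.5) by depleting other cell types and grown in an expansion medium. The question asked of the catenins is whether the others change when Ctnnb1 is removed, and how all of them behave as Wnt signalling is raised.

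The medium held CHIR (CHIR99021), an inhibitor of the kinase GSK3 that stabilizes beta-catenin, at 0 µM (no CHIR), 1.25 µM (low CHIR) or 5 µM (high CHIR). Wild-type NPCs were cultured at each level, with 3 libraries a group. In the Ctnnb1 removal experiment each of 8 groups had 2 libraries, at low or high CHIR. NPCs carrying the Ctnnb1 conditional allele on both chromosomes (labelled B-catenin_c_c) were treated with Cre (Cre-positive) or not (Cre-negative), and NPCs of the Cas9-eGFP genotype, which make Cas9 and GFP themselves, received guides to Ctnnb1 or a guide to GFP. In the Tcf/Lef experiment Cas9-eGFP NPCs received guides to the Tcf/Lef factors (Tcf7, Lef1, Tcf7l1 and Tcf7l2, a quadruple knockout, QKO) or the GFP guide, with 3 libraries a group except 2 for QKO in low CHIR. The Cas9-eGFP genotype is thus shared by the guide controls and the guide-treated cells, and the conditional allele by the Cre-negative and Cre-positive cells. Per the study, transfected cells spent a knockout period in low CHIR and then a day at the final CHIR level. The knockout period was a day longer in the Tcf/Lef experiment than in the Ctnnb1 removal experiment, so the controls of these experiments differ in time in culture. Per the study's methods, Cre mRNA or guides were transfected together with mCherry mRNA and mCherry-positive cells were sorted, so each removed group is a pool of cells edited independently, not a clone, and may hold cells that escaped editing.

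At the adherens junction, where epithelial cells are held together, the tail of a cadherin binds beta-catenin or plakoglobin, these bind alpha-catenin, and alpha-catenin meets the actin skeleton. The p120 and delta-catenins bind the cadherin nearer the membrane and keep it at the surface. In the Wnt pathway a destruction complex built on Axin and Apc marks free beta-catenin for breakdown, and beta-catenin that escapes joins Tcf/Lef factors on DNA, where Ctnnbip1 competes for the same binding surface. Plakoglobin is the closest relative of beta-catenin, is also a desmosome protein, and is known to take the place of beta-catenin at junctions when beta-catenin is lost in other tissues.

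The 4 guides to Ctnnb1 are shown because they fix which part of the gene Cas9 cut. Each is written 5′ to 3′ in lower case with the adjacent NGG motif (the PAM that Cas9 needs) in capitals. All match the strand opposite to the gene, on chromosome 9 of GRCm38, where Ctnnb1 spans chr9:120929216-120960507.
Ctnnb1 sgRNA5: agctacttgctcttgcgtgaAGG
Ctnnb1 sgRNA1: atgagcagcgtcaaactgcgTGG
Ctnnb1 sgRNA3: agccaagcgctggacattagTGG
Ctnnb1 sgRNA6: gagattatgcagtgtcgtgaTGG

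On the transcript Ctnnb1-201 of the GENCODE vM21 annotation, the sgRNA5 site is at chr9:120950729-120950748 in exon 3, the sgRNA1 site at chr9:120950987-120951006 and the sgRNA3 site at chr9:120951011-120951030 are both in exon 4, and the sgRNA6 site at chr9:120951618-120951637 is in exon 6. All 4 sites are coding. The study names other exons for sgRNA1 and sgRNA3, and the numbers here count the exons of this transcript. The cut nearest to the start of the protein falls after coding base 223 of 2343 and the last after base 769, or 9.52% and 32.8% of the coding length. An insertion or deletion there can shift the reading frame without removing the transcript, and the Cre allele loses an inner stretch of exons while the rest of the gene is still transcribed. The values below count reads over all exons of a gene, so the level of Ctnnb1 reads transcript, not protein.

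The values are normalized counts, which are reads on a gene divided by 1 size factor per library, and libraries held between 13089780 and 76071568 reads on genes. Tests were made within a table with limma on log2(normalized count + 1), a scale that understates the change of genes with few reads, over genes with a mean of at least 10, and a gene is called changed at a Benjamini-Hochberg adjusted p under 0.05. By this mean 6 of the 7 catenins could be tested in every table, and Ctnna2 could not. Wild-type high CHIR replicate 3 stood apart from its group in several readouts, so results that rest on it are also given without it. The NPC marker Six2 lay between 1206 and 3545 normalized counts in the no and low CHIR control and wild-type libraries. It lay between 60.5 and 79.6 in wild-type high CHIR, so those libraries no longer carry this marker of the label at its low CHIR level. Of 9 NPC markers, Six2 among them, 6 were called lower and 0 higher in wild-type high against low CHIR (10.6% of all genes called). In the mean of the Cre-negative and GFP guide controls 6 were lower and 2 higher (16.5% called). In the Tcf/Lef controls 6 were lower and 1 higher (15.6% called), so the markers did not all move together. The summed normalized counts of 6 stroma markers ranged from 151 to 26017 over all libraries, mostly from the collagens Col1a1 and Col3a1. Nothing in the labels says that libraries of 1 group came from separate litters, so the p-values measure the spread between these libraries. In bulk RNA, fewer cells that express a gene and less transcript per cell cannot be told apart.

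Levels are compared between genes only as normalized counts per kilobase of exon that no other gene shares. Ctnna1 was highest with a median of 1246 per kilobase over the 36 libraries, ahead of Ctnnb1 with 627, Jup with 279, Ctnnd1 with 115, Ctnnbip1 with 90.6, Ctnnd2 with 1.53 and Ctnna2 with 0.164. Tables were normalized separately, but the order can be read within each library. Ctnna1 was above Ctnnb1 and Ctnnb1 above Jup in 36 of 36 libraries, and Ctnnbip1 was above Ctnnd2 in 36 of 36. Jup was above Ctnnd1 in 34 of 36, and Ctnnd1 above Ctnnbip1 in 31 of 36, so the place of these neighbours was not fixed. The smallest gap between Ctnna1 and Ctnnb1 was 1.00-fold in a single library, against a median of 1.97-fold. The place of Ctnnd1 (chr2:84600071-84650765) is uncertain, because 61.2% of its exon bases lie under another annotated gene on the same strand, Gm28635, and reads there may count for neither.

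**Figure D1:**
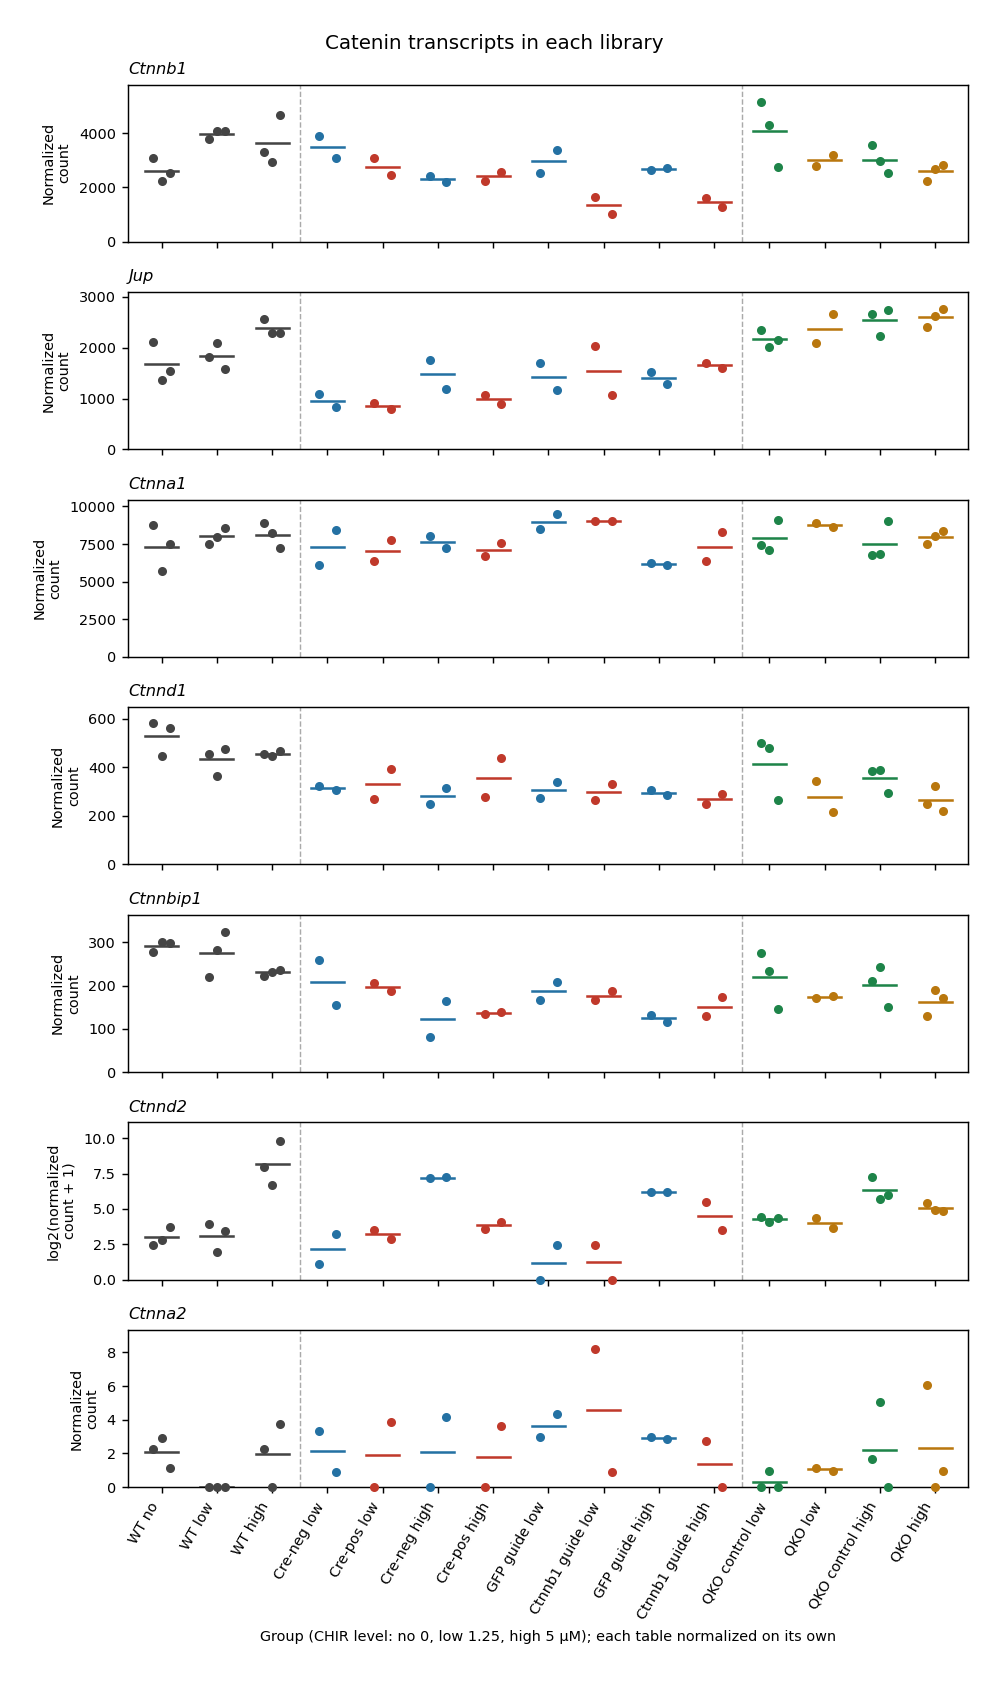
Normalized counts of the 7 catenins (y axes, linear from 0 except Ctnnd2, which is on a log2(count + 1) axis) in each library, by group and CHIR level on the x axis. Points are libraries, bars are group means and dashed lines separate the 3 tables, with red for removed Ctnnb1, blue for its controls, gold for QKO and green for its controls. Ctnnb1 is lowest with the Ctnnb1 guides, between 1040 and 1652, and Ctnnd2 is highest in high CHIR with Ctnnb1 intact.

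The targeted gene was read first. Ctnnb1 was lower with the guides at both CHIR levels, while with Cre the groups lay close together. In low CHIR the GFP guide libraries held 2521 and 3397 normalized counts of Ctnnb1 and the Ctnnb1 guide libraries 1652 and 1040. In high CHIR the GFP guide libraries held 2632 and 2701 and the Ctnnb1 guide libraries 1630 and 1270. The guide-treated libraries were below their controls at both CHIR levels with no overlap, at 45.5% and 54.4% of the control mean. Groups of 2 libraries can often separate without any change, and the share of all genes that do so was not counted. Here and below, no overlap is therefore a description and not a test.

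With Cre in low CHIR, Ctnnb1 was 3880 and 3097 in the Cre-negative libraries and 3085 and 2451 in the Cre-positive ones. In high CHIR it was 2423 and 2207 in the Cre-negative and 2254 and 2583 in the Cre-positive libraries. In low CHIR the Cre-positive libraries were below the Cre-negative ones by a narrow margin (highest treated 3085, lowest control 3097), and in high CHIR the groups overlapped. The transcript count therefore does not by itself separate the Cre-positive from the Cre-negative libraries in high CHIR. Other readouts did separate them there, such as the Wnt target and Tcf/Lef member Lef1, which fell by 3.34 on the log2 scale (limma adjusted p = 0.000384). Whether reads over the deleted exons alone would separate them was not tested.

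On the log2(count + 1) scale Ctnnb1 changed by -1.16 ± 0.23 (SE) with the guides in low CHIR and by -0.89 ± 0.23 in high CHIR. Over all 16780 genes tested in the table the adjusted p was 0.252 for the first and 0.0429 for the second. With Cre the change was -0.33 ± 0.23 in low CHIR (adjusted p = 0.657) and 0.06 ± 0.23 in high CHIR (adjusted p = 0.917). Averaged over both methods and both CHIR levels, Ctnnb1 fell by 0.58 ± 0.12 (adjusted p = 0.00422), and it was called there whichever of the 16 libraries was left out. That mean joins the larger falls with the guides to changes with Cre that were not called and differed in sign. It therefore does not show a fall with Cre. In low CHIR only 0.0536% of genes were called with the guides, so the threshold there was hard to pass, and DESeq2 on the reads called Ctnnb1 (adjusted p = 0.0059). The call with the guides in high CHIR was lost when any 1 of its 4 libraries was left out (adjusted p from 0.0753 to 0.344).

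The guide effect on Ctnnb1 minus the Cre effect, over both CHIR levels, was -0.89 ± 0.23 on the log2 scale, with a 95% interval from -1.39 to -0.39. In the fit over all genes the adjusted p of this difference was 0.537, and 0 of 16780 genes (0% of those tested) were called by limma, against 875 at an unadjusted p under 0.05. For this difference edgeR called 0 genes and DESeq2 47, and Ctnnb1 was called by neither. The effect of removal on Ctnnb1 in high CHIR minus that in low CHIR was 0.33 ± 0.23 (adjusted p = 0.586), and 0 of 6 catenins were called for it, where 2.44% of all genes were.

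Apart from Ctnnb1, no other catenin passed the test on removal, in any of the 4 single comparisons or in their mean. The members called were 1 of 6 (Ctnnb1, lower) in the mean of the 4, where 15.8% of all genes were called. They were 1 of 6 (Ctnnb1) with the guides in high CHIR, where 5.09% were called, and 0 of 6 with Cre in high CHIR, where 8.65% were. In low CHIR 0 of 6 were called by either method, beside 0.328% of all genes with Cre and 0.0536% with the guides. The median change of the 6 in the mean of the 4 was -0.03 on the log2 scale, beside -0.02 for all genes tested.

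**Figure D2:**
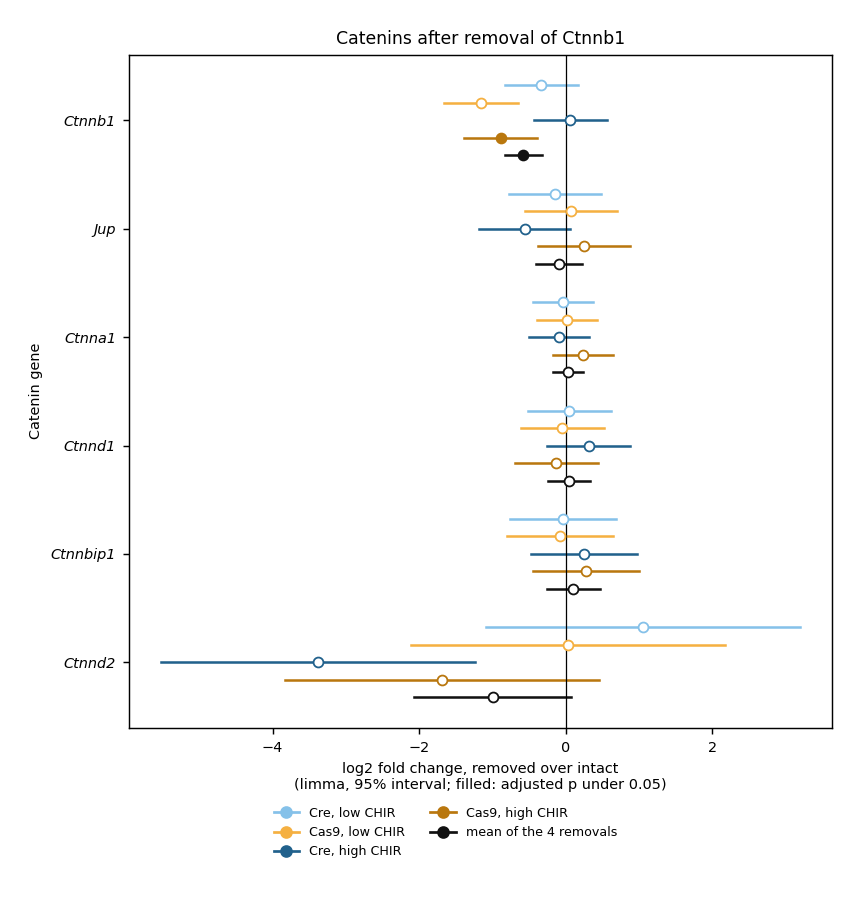
Log2 fold change (x axis, removed over intact, limma with 95% intervals) of each tested catenin (y axis) after removal of Ctnnb1 by Cre (blue) or Cas9 (orange) at low (pale) or high (dark) CHIR, and as the mean of the 4 (black). Filled points passed an adjusted p under 0.05, which are Ctnnb1 with the guides in high CHIR (-0.89) and Ctnnb1 in the mean (-0.58). The intervals of Jup, Ctnna1, Ctnnd1 and Ctnnbip1 cross 0 in all the comparisons drawn.

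Jup (plakoglobin, chr11:100368958-100397763) is the member most like beta-catenin. With the guides it was 1692 and 1163 in the low CHIR controls against 2031 and 1071 after removal, and 1514 and 1280 in the high CHIR controls against 1708 and 1606. With Cre it was 1083 and 827 against 915 and 799 in low CHIR, and 1767 and 1181 against 1077 and 889 in high CHIR. The Cre-positive libraries in high CHIR lay below their controls and the guide-treated ones above theirs, while the low CHIR groups overlapped.

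Neither of these passed the test. The change of Jup with Cre in high CHIR was -0.56 ± 0.29 on the log2 scale (adjusted p = 0.300), and the guide effect minus the Cre effect over both CHIR levels was 0.51 ± 0.29 (adjusted p = 0.944). Averaged over the 4 comparisons Jup changed by -0.10, with a 95% interval from -0.41 to 0.22. That mean joins effects of opposite sign and does not bound either method. In high CHIR the single intervals ran from -1.19 to 0.06 with Cre and from -0.37 to 0.88 with the guides.

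Ctnna1, which links the cadherin complex to actin (chr18:35118859-35254779), had the narrowest fold range over all libraries, though the tables were normalized separately. Within the wild-type table Ctnnbip1 ranged less, by 1.48-fold against 1.56-fold for Ctnna1. The normalized count of Ctnna1 lay between 5694 and 9490 in all 36 libraries, a range of 1.67-fold. In the removal table it was 6124 and 8425 without and 6348 and 7764 with Cre in low CHIR, and both guide-treated low CHIR libraries held 9058, against 8474 and 9490 with the GFP guide. In high CHIR it was 8005 and 7228 without and 6696 and 7540 with Cre, and 6256 and 6141 with the GFP guide against 6356 and 8309 with the Ctnnb1 guides. These last lay above their controls with no overlap, a change of 0.23 ± 0.19 (adjusted p = 0.556), and the high CHIR GFP guide libraries lay below the low CHIR ones, at 69.0% of their mean. Its mean change on removal was 0.03, with a 95% interval from -0.18 to 0.23 on the log2 scale, the narrowest of the 6.

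Ctnnd1, the p120-catenin that stabilizes cadherins at the membrane, lay between 249 and 436 in the removal table and its groups overlapped in all 4 comparisons. Its mean change was 0.05, with a 95% interval from -0.24 to 0.33. Ctnnbip1, the inhibitor that competes with Tcf/Lef factors (chr4:149518236-149566437), lay between 81.0 and 260 in that table. Its mean change was 0.10, with an interval from -0.26 to 0.46. Over these genes and Jup, the 16 single changes ran from -0.56 to 0.31 and the smallest adjusted p was 0.300.

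Ctnna2, the alpha-catenin known from neurons (chr6:76881637-77979699), was barely read. All 36 libraries together held 77 reads of it, 12 libraries held none, and the highest value was 8.23 normalized counts, in a Ctnnb1 guide library in low CHIR whose replicate held 0.918. No fold change is given for it, since no library held over 9 reads of it.

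Ctnnd2 (delta-catenin, chr15:30172593-31029341), the catenin best known from neurons, was called where CHIR was raised, in each of the 3 sets of cells with Ctnnb1 intact. In wild-type NPCs it was 4.59, 5.85 and 12.3 normalized counts in no CHIR, 14.5, 2.85 and 9.58 in low CHIR, and 249, 101 and 892 in high CHIR. Every wild-type high CHIR library was above every other wild-type one, and the no and low CHIR groups overlapped. The ratio of the group means, high over low, was 46.2, and without wild-type high CHIR replicate 3, which holds the 892, it was 19.5.

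The same was read in the controls of the other experiments, which are separate libraries. Ctnnd2 was 1.11 and 8.24 in Cre-negative low CHIR and 145 and 150 in Cre-negative high CHIR. With the GFP guide it was 0 and 4.33 in low and 73.4 and 70.8 in high CHIR. In the controls of the Tcf/Lef experiment it was 20.8, 15.8 and 19.9 in low and 154, 51.6 and 61.7 in high CHIR. In each control pair the high CHIR libraries were above the low CHIR ones with no overlap.

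On the log2(count + 1) scale the rise was 5.04 ± 0.79 (SE) in wild-type NPCs (adjusted p = 0.00277), and 4.22 without replicate 3 (adjusted p = 0.00306). It was 5.03 ± 0.70 in the mean of the Cre-negative and GFP guide controls (adjusted p = 0.000216) and 2.02 ± 0.41 in the Tcf/Lef controls (adjusted p = 0.00587). Of the 6 catenins tested, 1 was called in each of these comparisons, always Ctnnd2, where 10.6%, 16.5% and 15.6% of all genes were called. In the wild-type and removal tables Ctnnd2 reached the mean of 10 needed for testing only through its high CHIR groups. Its mean was 8.96 in wild-type low CHIR and 7.58 in no CHIR. In the low CHIR groups of the removal table it lay between 2.16 and 8.39. All these means are above the alternative filter of 1, and the call held with that filter. The call also held under limma, edgeR and DESeq2 and with each library of the compared groups left out. Whether the rise differs between the tables was not tested, and the Tcf/Lef controls had the longer knockout period.

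**Figure D3:**
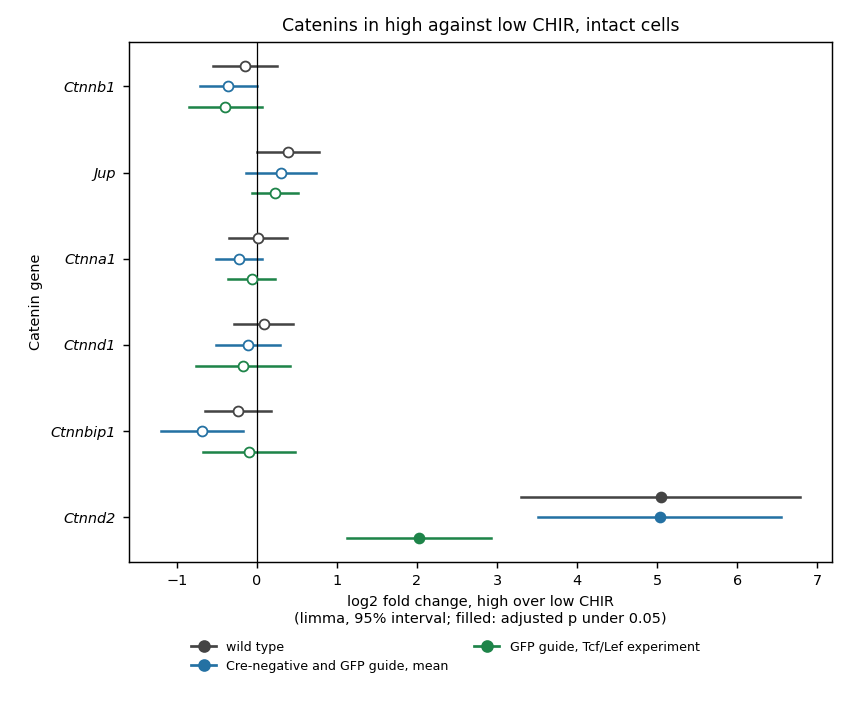
Log2 fold change (x axis, limma with 95% intervals) of each tested catenin (y axis) in high against low CHIR where Ctnnb1 and the Tcf/Lef genes were not targeted, in wild-type NPCs, in the mean of the Cre-negative and GFP guide controls, and in the controls of the Tcf/Lef experiment. Filled points passed an adjusted p under 0.05. Only Ctnnd2 is filled, at 5.04, 5.03 and 2.02.

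Where Ctnnb1 was removed, Ctnnd2 in high CHIR lay below the controls in each library. It was 11.1 and 15.8 in the Cre-positive libraries, 9.09% of the mean of their controls, and 43.3 and 10.6 with the Ctnnb1 guides, 37.3% of theirs. Both sets lay below their controls with no overlap. The guide value rests on the library left in, at 14.6% of the control mean without replicate 1 and 60% without replicate 2 (log2 changes of -2.66 and -0.72). In low CHIR, where Ctnnd2 is near the floor, it was 10.3 and 6.44 in the Cre-positive and 4.57 and 0 in the Ctnnb1 guide libraries. These comparisons share their high CHIR controls with the rise just described, so they are not a separate reading of it.

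These differences did not pass the limma test over the whole table. With Cre in high CHIR the change was -3.38 ± 0.99 (adjusted p = 0.0515), and with the guides -1.69 ± 0.99 (adjusted p = 0.381). The Cre change was called by edgeR (adjusted p = 0.0279), by DESeq2 (adjusted p = 0.000322) and by limma on the compared groups alone (adjusted p = 0.0135). The removal effect in high minus that in low CHIR was -3.08 ± 0.99 (adjusted p = 0.158), and it was called by DESeq2 (adjusted p = 0.047) but not by edgeR. Averaged over the 4 comparisons the change was -0.997, with a 95% interval from -2.07 to 0.07 (adjusted p = 0.206).

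Ctnnd2 was also lower where the Tcf/Lef factors were targeted, in a comparison whose high CHIR controls are those of the rise in the Tcf/Lef controls. In high CHIR Ctnnd2 was 154, 51.6 and 61.7 in the controls and 40.9, 29.1 and 28.0 in QKO, all below the controls, at 36.6% of their mean. Without control replicate 1, which holds the 154, the share was 57.6% and the log2 change -0.79. In low CHIR QKO libraries held 19.7 and 11.7. The change in high CHIR was -1.27 ± 0.41 (adjusted p = 0.157), and with the replicate number as a block, which pairs these libraries, the adjusted p was 0.031. DESeq2 called it (adjusted p = 0.0412) and edgeR did not. In low CHIR the change was -0.28 ± 0.46 (adjusted p = 0.93).

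The other catenins did not pass the test in QKO at either CHIR level. Of the 6 tested, 0 were called in high CHIR, where 2.56% of all genes were, and 0 in low CHIR, where 0.0063% (1 gene) were. At low CHIR 706 genes had an unadjusted p under 0.05, and edgeR called 1 gene and DESeq2 22. With the replicate block, 1266 genes were called in high and 16 in low CHIR, among them 1 catenin (Ctnnd2) in high CHIR. Ctnnb1 was 5159, 4298 and 2742 in the low CHIR controls and 2785 and 3208 in QKO, and 3550, 2985 and 2525 in the high CHIR controls against 2255, 2697 and 2817. These groups overlapped. Ctnnb1 changed by -0.40 ± 0.24 in low and -0.21 ± 0.21 in high CHIR (adjusted p = 0.904 and 0.695).

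Ctnnd1 in low CHIR was 500, 479 and 265 in the controls and 342 and 217 in QKO, and in high CHIR 385, 389 and 296 against 249, 323 and 222. Its changes were -0.55 ± 0.30 and -0.44 ± 0.27 (adjusted p = 0.904 and 0.512), in fits that do not use the pairing by replicate number. By that number Ctnnd1 was lower in QKO than in its control in each pair at both CHIR levels, as a description. With all libraries kept, the lowest adjusted p over the limma (block included), edgeR and DESeq2 alternatives was 0.653 in low and 0.147 in high CHIR. Control replicate 3 was the lowest of its group for Ctnnb1, Ctnnd1 and Ctnnbip1 at both CHIR levels. Jup lay between 2008 and 2768 in all 11 libraries of the Tcf/Lef table.

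The remaining catenins did not pass the test with CHIR. In wild-type NPCs Ctnnb1 was 3085, 2254 and 2532 in no CHIR, 3770, 4069 and 4080 in low CHIR, and 3318, 2928 and 4686 in high CHIR. The no CHIR libraries were all below the low CHIR ones, and the change was -0.61 ± 0.18 (adjusted p = 0.0825), so 0 of 6 catenins were called, where 5.04% of genes were. It was called by DESeq2 (adjusted p = 0.0412) and by limma on these groups alone (adjusted p = 0.0299). In high against low CHIR Ctnnb1 changed by -0.15 ± 0.18 in wild-type NPCs (-0.35 without replicate 3 of high CHIR, adjusted p = 0.168), -0.36 ± 0.16 in the removal controls and -0.39 ± 0.21 in the Tcf/Lef controls (adjusted p = 0.661, 0.156 and 0.25). In the last set Ctnnb1 was called only without low CHIR control replicate 3, its lowest library there (-0.65, adjusted p = 0.0174).

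Jup in wild-type NPCs was 1821, 2094 and 1588 in low and 2572, 2282 and 2299 in high CHIR, with no overlap and a change of 0.39 ± 0.18 (adjusted p = 0.207). In the mean of the Cre-negative and GFP guide controls the change was 0.30 ± 0.20 (adjusted p = 0.352). Ctnnbip1 in those controls went from 260 and 156 to 81.0 and 164 without Cre, and from 166 and 209 to 131 and 117 with the GFP guide. Its change of -0.69 ± 0.24 missed the threshold (adjusted p = 0.0643) and passed it under DESeq2 (adjusted p = 0.0393) and without Cre-negative replicate 2 of either CHIR level (adjusted p = 0.0142 and 0.0305).

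Because plakoglobin is the closest relative of beta-catenin, the ratio of Ctnnb1 to Jup, each per kilobase, was also read in every library as a description. It was above 1 in all 36 libraries. The lowest group was the Ctnnb1 guide in high CHIR with 1.39 and 1.15, followed by the Ctnnb1 guide in low CHIR with 1.19 and 1.42, against 2.17 to 4.26 in their GFP guide controls. With Cre the ratio was 5.23 and 5.47 against 4.92 and 4.47 in low CHIR, and 2.001 and 2.73 against 3.05 and 4.24 in high CHIR, where Cre-positive libraries held the higher ratio.

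**Figure D4:**
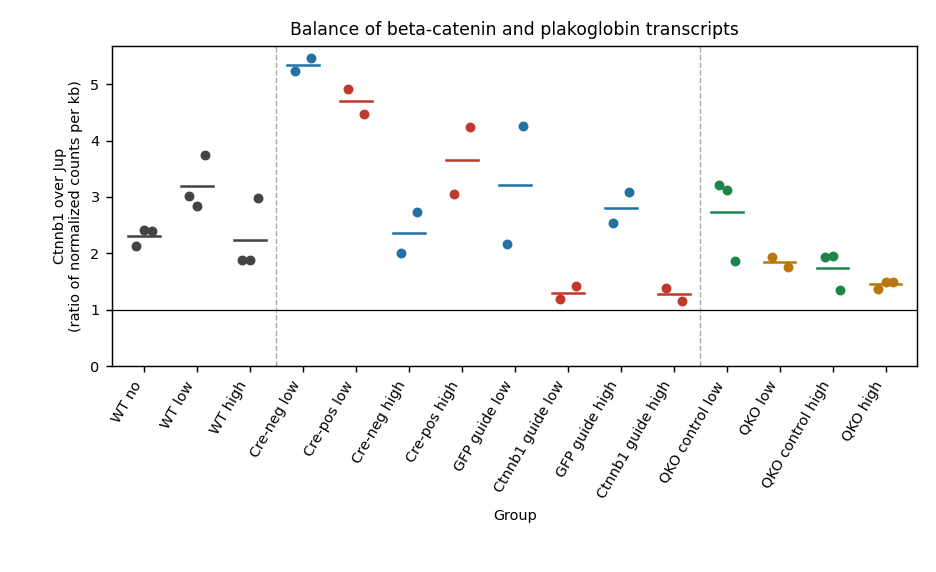
Ratio of Ctnnb1 to Jup normalized counts per kilobase of unshared exon (y axis) in each library, by group (x axis). Points are libraries, bars are means, dashed lines separate the tables and the horizontal line marks a ratio of 1. The 4 Ctnnb1 guide libraries lie between 1.15 and 1.42, below the 4 GFP guide libraries of the same table (2.17 to 4.26).

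Genes that work with the catenins were read as lists. The lists were chosen with earlier results of these data known, and the study itself names Cdh4, Lef1, Tcf7 and Tcf7l1 as responding in these cultures. Counts called in a list, beside the share of all genes, are therefore a description and not a test of enrichment. In a list of 10 cadherins and desmosome partners, 9 could be tested. In the mean of the 4 removals, where 15.8% of all genes were called, 2 rose and 3 fell, with a list median of -0.76 on the log2 scale beside -0.02 for all genes. The classical cadherins Cdh4 and Cdh3 fell by 1.44 ± 0.11 and 1.07 ± 0.16 (adjusted p = 2.47e-06 and 0.000598), and Cdh6, known from the renal vesicle, fell by 1.05 ± 0.22 (adjusted p = 0.00571). N-cadherin, Cdh2, rose by 0.59 ± 0.12 (adjusted p = 0.00387), as did the mesenchymal cadherin Cdh11 by 0.29 ± 0.09 (adjusted p = 0.0413). The call of Cdh11 was lost with most single libraries left out (adjusted p up to 0.0955).

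High against low CHIR with Ctnnb1 intact was read for the same list, and in the removal table it shares control libraries with the removals. In those controls, where 16.5% of all genes were called, 4 rose and 2 fell, among them Cdh3 (2.08 ± 0.23), Cdh4 (1.73 ± 0.16) and Cdh6 (2.65 ± 0.31) upward and Cdh2 (-0.83 ± 0.17) downward. In wild-type NPCs, where 10.6% of all genes were called, 5 rose and 1 fell. The desmosome genes Dsp, Dsg2 and Dsc2, whose products plakoglobin binds, rose there by 3.94 ± 0.58, 2.44 ± 0.51 and 4.28 ± 0.89 (adjusted p = 0.00191, 0.0122 and 0.0125). The Dsg2 call was lost without low CHIR replicate 3 (adjusted p = 0.0516). The change of Dsc2 ran from 3.35 to 5.12 with 1 library left out. In the removal controls Dsp was called higher, but Dsg2 and Dsc2 were not called. Each of these desmosome genes was called in the Tcf/Lef controls, with the calls of Dsg2 and Dsc2 lost without some single libraries. In the Tcf/Lef controls, where 15.6% of all genes were called, 6 rose and 2 fell, and in QKO at high CHIR, where 2.56% were, Cdh3 (-1.70 ± 0.34) and Cdh4 (-0.91 ± 0.21) were the 2 called, both lower (adjusted p = 0.0219 and 0.0482). With any 1 of the 6 libraries of that comparison left out, 0 or 1 of them was called, and it was 0 without QKO replicate 3. Those leave-one-out fits ignore the pairing by replicate number, and with all 6 libraries both genes were also called with the replicate block.

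Of 8 nuclear partners of beta-catenin, 3 rose and 2 fell in the mean of the removals, beside 15.8% of all genes called. Lef1 and Tcf7 fell by 1.74 ± 0.23 and 1.14 ± 0.18 (adjusted p = 0.000187 and 0.00071). Tcf7l1, Tcf7l2 and the co-activator Bcl9l rose by 0.87 ± 0.12, 0.49 ± 0.10 and 0.49 ± 0.10 (adjusted p = 0.000252, 0.00407 and 0.00632). In high CHIR wild-type cultures, where 10.6% of all genes were called, 2 rose (Lef1, Tcf7) and 2 fell (Tcf7l1, Bcl9l).

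Of 10 genes of the destruction complex, 1 rose and 1 fell in the mean of the removals, a share near the 15.8% of all genes called. Axin2, a scaffold of the complex and a common Wnt target, fell by 1.19 ± 0.21 (adjusted p = 0.00168) and Apc2 rose by 1.12 ± 0.29 (adjusted p = 0.0177). Gsk3b and Apc were not called there. Axin2 was the 1 gene of the list that rose in high CHIR in each of the 3 control sets, by 2.83 ± 0.65, 1.58 ± 0.29 and 2.14 ± 0.32 (adjusted p = 0.0204, 0.00219 and 0.00077). The wild-type call was lost without any 1 of the low CHIR libraries (adjusted p from 0.0587 to 0.0792), and the Apc2 call without Ctnnb1 guide low CHIR replicate 1 (adjusted p = 0.0508). Amer1, which binds Apc, fell by 0.49 ± 0.13 in wild-type high CHIR (adjusted p = 0.0335), a call lost without any 1 of the 6 libraries compared (adjusted p from 0.0512 to 0.132).

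More distant relatives of the catenins were also read, 9 genes with 6 tested in the removal table and 7 in the others. In the mean of the removals 2 rose and 1 fell, beside 15.8% of all genes called. The desmosomal plakophilin Pkp2 rose by 1.38 ± 0.31 (adjusted p = 0.00873) and vinculin, Vcl, an actin linker that binds alpha-catenin, rose by 1.30 ± 0.25 (adjusted p = 0.00343). The alpha-catenin-like gene Ctnnal1 fell by 0.42 ± 0.11 (adjusted p = 0.0213), a call lost without Ctnnb1 guide low CHIR replicate 1 or GFP guide high CHIR replicate 2 (adjusted p = 0.0556 and 0.054). In high against low CHIR 2 rose and 1 fell in wild-type NPCs, 1 and 1 in the removal controls, and 2 and 1 in the Tcf/Lef controls, beside 10.6%, 16.5% and 15.6% of all genes called. Pkp2 rose by 2.17 ± 0.34 in wild-type high CHIR as well (adjusted p = 0.00293). Pkp3, another plakophilin, rose there by 1.96 ± 0.55 (adjusted p = 0.0463), a call lost without 5 of the 6 libraries in turn (adjusted p up to 0.134). Pkp4, a relative of p120-catenin, fell in all 3 sets, by 0.95 ± 0.23, 0.57 ± 0.14 and 0.88 ± 0.24 (adjusted p = 0.0252, 0.0106 and 0.0256), and in each set leaving out 1 library could end the call (adjusted p up to 0.108, 0.0555 and 0.109). Ctnnal1 rose in the removal controls by 0.80 ± 0.16 and in the Tcf/Lef controls by 1.24 ± 0.24 (adjusted p = 0.00327 and 0.00444). Ctnnbl1 rose in the Tcf/Lef controls by 0.70 ± 0.21 (adjusted p = 0.0424), a call lost without 4 of the 6 libraries in turn (adjusted p up to 0.15).

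Markers of other cell types moved with some of these groups. The summed normalized counts of 6 endothelium markers were 26.6 to 47.3 in wild-type low CHIR and 650 to 1412 in wild-type high CHIR. In the Tcf/Lef controls they were 33.7 to 47.7 in low and 142 to 235 in high CHIR. In the Cre-negative libraries they were 23.3 to 24.7 in low and 29.5 to 41.5 in high CHIR. With the GFP guide of the removal experiment they were 21.6 to 34.8 in low and 20.1 to 41.2 in high CHIR. The endothelial cadherin Cdh5 had too few reads to be tested in the removal table. The summed stroma markers were 2858 to 4216 in Cre-negative high CHIR and 4872 to 9943 in Cre-positive high CHIR, and 3174 to 10749 against 8674 to 14546 with the guides. Of the stroma list, 1 of 5 genes tested, Col1a1, was called in the mean of the removals (1.04 higher on the log2 scale), where 15.8% of all genes were. The summed ureteric epithelium markers were 188 to 260 in wild-type low CHIR and 490 to 974 in wild-type high CHIR. With the GFP guide of the removal experiment they were lower in high CHIR (27.7 to 48.8) than in low (58.4 to 83.5). In high CHIR they were 112 to 267 with the Ctnnb1 guides, and 120 to 129 with Cre against 31.3 to 79.9 without. The 1 gene of this list tested in the removal table was called in the mean of the removals (0.81 higher). The part of these markers in the catenin values was not tested.

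For each catenin the genes most like it over libraries were named by the mean of the Pearson correlations within the 3 tables (9, 16 and 11 libraries), as a description without a test, since the libraries of a table share conditions and depth. Ctnnd2 was followed most closely by Gata2 (mean r = 0.916), Scube3 (0.901) and Cux2 (0.899). Ctnna1 was closest to Ogdh (0.896) and Jup to Fbxo21 (0.861). Looser nearest genes were those of Ctnnbip1 (Dyrk2, 0.814), Ctnnb1 (Brd2, 0.811) and Ctnnd1 (Hipk3, 0.798). Within the removal table the correlation of Ctnnb1 with Brd2 was 0.652.

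The promoters were searched for the core of the Tcf/Lef motif in RefSeq promoter sequences of GRCm38.p6, from 250 bases before to 50 after the start. CTTTGA or CTTTGT on either strand was found in 0 of 9 start-site windows of 6 catenins (Ctnna1 was not among them), and in 31.2% of 32851 promoters of all genes. These letters are not in those windows, and nothing follows from that about binding elsewhere.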

How the data were processed

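The authors deposited, for each of 3 experiments, a table of normalized read counts (a signal per gene: reads divided by 1 DESeq2 size factor per library). Per the labels and the study's methods, libraries were made with a SMARTer Ultra Low kit, which does not mark strand, sequenced as paired reads of 150 bases, aligned with STAR to a combined GRCm38 and GRCh38 reference and counted with featureCounts. Antisense overlaps therefore cannot be told apart, which touches Ctnnb1 (15.1% of exon bases) and Ctnnbip1 (25.8%). Dividing the values of a library by its smallest step gave whole numbers (100% of values, tolerance 0.01), so reads were recovered. For 3 libraries the step was near 1, and they were used all the same. Another 50 columns of per-sample values were not mapped to a sample and not used, nor were 8 tables of the authors' own comparisons (fold changes and p-values).

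limma 3.58.1 (R 4.3.3, empirical Bayes with trend) was run within each table on log2(normalized count + 1) for genes with a mean of at least 10, with all libraries of the table in 1 fit, 13 comparisons in all and Benjamini-Hochberg adjustment over all genes tested. edgeR 4.0.16 (quasi-likelihood) and DESeq2 1.42.0 on the recovered reads, a pseudocount of 0.5, a mean of at least 1, TMM rescaling, the compared groups alone, a replicate block and leaving out each library were alternatives. Simulated data were used to test limma only, for wild-type high against low CHIR, guides in high CHIR, mean removal and QKO in high CHIR. The other comparisons and the alternatives were not tested in this way. Replicate numbers were taken to pair libraries in the Tcf/Lef table, where the deviations of same-numbered libraries correlated at 0.249 to 0.63 in every pair of up to 3 numbers. The main fits and the leave-one-out fits of that table do not use this pairing, and only the block alternative does. In the removal table the correlations were 0.196 to 0.491, but with 2 libraries a group each comparison gives a single value, too few to establish pairing, and the block is an alternative there. In the wild-type table they were -0.0156 to 0.177. No 2 libraries were duplicates. All 7 members are named, with partner genes from the called members of each list. The members and lists were chosen with earlier results of these data known. Reads were not split by exon, and genes were placed by the GENCODE vM21 annotation of GRCm38.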

Additional observations from a re-analysis of the deposited data

Results flagged for a closer look

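None of the catenins had a removal effect that passed a test of the difference between high and low CHIR under limma, but 5 of their partners did. The removal effect in high minus that in low CHIR, on the log2 scale, was -1.71 ± 0.32 (SE) for Cdh3 (adjusted p = 0.0108) and -1.38 ± 0.23 for Cdh4 (adjusted p = 0.00437), both cadherins. It was -2.48 ± 0.45 for Lef1 (adjusted p = 0.00854), 1.60 ± 0.24 for Tcf7l1 (adjusted p = 0.00188) and 1.05 ± 0.21 for Bcl9l (adjusted p = 0.0154), which are nuclear partners of beta-catenin. Tcf7l1 changed by 0.06 with Cre and 0.08 with the guides in low CHIR, and by 1.81 and 1.53 in high CHIR.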

How the results depend on the processing

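Of the counts of catenins called, 182 under alternatives were as in the text and 20 differed. DESeq2 gave 1 in place of 0 for no against low CHIR (Ctnnb1), the guides in low CHIR (Ctnnb1), Cre in high CHIR, removal by CHIR and QKO in high CHIR (Ctnnd2 in each), and 2 in place of 1 for CHIR in the removal controls (with Ctnnbip1). The compared groups alone gave 1 for no against low CHIR and for Cre in high CHIR, edgeR gave 1 for the latter, and a mean filter of 1 gave 0 in place of 1 for the guides in high CHIR. With the replicate number as a block the count was 1 for Cre in high CHIR (Ctnnd2, adjusted p = 0.042), 2 for CHIR in the removal controls (with Ctnnbip1, adjusted p = 0.0475) and 1 for QKO in high CHIR, where the number pairs the libraries. It changed no other count of catenins called. In the removal table pairing could not be established from 2 libraries a group, and in the wild-type table libraries share only a number. With each library left out, the count was 0 to 0 for the guides in high CHIR and 1 to 2 for CHIR in the removal controls and in the Tcf/Lef controls. A group of 2 is then 1 library, assumed to vary like the others.

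Some small changes turned sign when a library was left out. The ranges were, for mean removal, -0.21 to 0.019 for Jup, -0.029 to 0.086 for Ctnna1, -0.036 to 0.13 for Ctnnd1 and -0.024 to 0.23 for Ctnnbip1, then -0.037 to 0.16 for Ctnnb1 with Cre in high CHIR and -0.63 to 0.075 for Ctnnd2 in QKO at low CHIR. The cause was not tested.

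Counts of all genes called moved by over 1.5 times under DESeq2 for high against low CHIR (1841 to 2780), no against low (878 to 1940), Cre in low (55 to 281), guides in low (9 to 30) and high CHIR (854 to 1506), removal by CHIR (409 to 778), guides minus Cre (0 to 47), and QKO in low (1 to 22) and high CHIR (407 to 912). With the block they were 173 for Cre in low CHIR, 1455 for guides in high CHIR, 680 for removal by CHIR, 17 for guides minus Cre, 16 and 1266 for QKO in low and high CHIR, and 3889 in place of 2479 for CHIR in the Tcf/Lef controls. The compared groups alone gave 1614 for no against low CHIR, 4 and 624 (in place of 1452) for Cre in low and high CHIR, 0 and 1746 for the guides, and 0 for QKO in low CHIR. A pseudocount of 0.5 or TMM gave 0 for the guides in low CHIR, and a mean filter of 1 gave 4 for QKO in low CHIR.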
